A study of Mus musculus with 18 samples.

Results

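CTCF regions without cohesin were 1720 of the 16902 regions that held a peak of all 3 CTCF lists of the study, or 10.2%. The CTCF lists, of 1 WT and 2 Satb1 KO libraries, were merged on chromosomes 1 to 19 wherever peaks overlapped by 1 bp, which gave 62309 regions. A region was a member if it held a peak of every CTCF list and overlapped no peak of any of 4 lists of SMC1A, a core subunit of cohesin. Membership was therefore chosen by measured peaks, and the number of members is a description with no test. Of the other regions in all 3 CTCF lists, 1429 overlapped SMC1A in 1 list, 1660 in 2, 2255 in 3 and 9838 in all 4; the last class, 58.2%, is called cohesin-bound below.

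CTCF is a zinc finger protein that binds a long, conserved DNA motif. Cohesin is a ring complex that extrudes loops of chromatin and is commonly halted where CTCF sits, so the pair shares most of its sites in mammalian cells. Sites with CTCF alone are known as the less common kind, and CTCF is also known to bind near promoters, where it can act on single genes.

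The study profiled sorted DP thymocytes (developing T cells that carry both CD4 and CD8) of WT mice and of mice with an induced Satb1 knockout, and mice of both genotypes had been given tamoxifen. SATB1 organises chromatin and is abundant in these cells. CUT&RUN was the assay: an antibody guides a nuclease to its target, and the DNA cut free is sequenced. The 7 lists used here came from WT CTCF replicate 1, Satb1 KO CTCF replicates 1 and 2, and replicates 1 and 2 of SMC1A in each genotype; a second WT CTCF list was not analysed here. The recombinase line and promoter behind the knockout, and the age of the mice, are not stated in the labels used here. The labels do not say whether replicates came from separate animals, so differences between replicates may be technical. Peak lists do not measure expression, so the cell type and the loss of Satb1 could not be checked against marker genes.

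The lists differed in length and background. On chromosomes 1 to 19 they held 38222 CTCF peaks in WT, 54222 in Satb1 KO replicate 1 and 22351 in Satb1 KO replicate 2, and between 19466 and 27459 SMC1A peaks. The lists give no read numbers, so depth is unknown. A proxy, the local background under the lowest 1% of peaks, was 1.02 reads or fragments in the WT CTCF list, 1.82 in Satb1 KO replicate 1 and 3.28 in Satb1 KO replicate 2. These differences move with the number of members: without the short Satb1 KO replicate 2 CTCF list, 6490 of 28530 regions would qualify, beside 1720 of 16902 with it. The longest SMC1A list, Satb1 KO replicate 1 with 27459 peaks, was the only list at 817 of the 1429 regions with SMC1A in 1 list, or 57.2%.

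Sequence at members could be read only at promoters. Members overlapped the promoter windows of 64 genes, each running from 250 bases before to 50 after the start in the RefSeq table for GRCm38.p6, the assembly that mm10 represents. The CTCF core motif, 12 letters long, was found on either strand in 5 of these 64 windows, or 7.81% (95% Wilson interval 3.38 to 17.0%). It was found in 1.47% of the 5105 windows at cohesin-bound regions (1.17 to 1.84%) and in 0.551% of all 27025 genes' windows. At regions with SMC1A in 1 to 3 lists it was in 3.52% of 825 windows (2.46 to 5.00%), a share that the members' interval holds. The share at members was 3.13% without the Satb1 KO replicate 2 CTCF list, 4.50% with SMC1A peaks of −log10 q 5 or more, and 2.13% (1.03 to 4.33%) when only SMC1A summits within 200 bp removed a region. A window counted if any part of a region overlapped it, and median region width was 604 bp at members and 1197.5 bp at cohesin-bound regions. The classes' windows were therefore not matched for distance to the summit. Of member windows that held the mean summit, 4 of 39 had the core (10.3%), a share not computed for the other classes. The sequences below show where the match lies at members, each as 100 of the 250 bases before the start, chosen to hold the match, read 5′ to 3′ along the gene with the match in capitals. The first 4 hold the core upstream of the start, and the next 4 hold only a looser form in which several positions may be any base. Apart from Nmur1, which a ranking by peak strength named, they were picked after the motif search.

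Nmur1 (chr1:86389427-86389526, minus strand): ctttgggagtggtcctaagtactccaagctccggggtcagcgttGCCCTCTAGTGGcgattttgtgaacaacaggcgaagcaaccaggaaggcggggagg
Nudt17 (chr3:96708561-96708660, minus strand): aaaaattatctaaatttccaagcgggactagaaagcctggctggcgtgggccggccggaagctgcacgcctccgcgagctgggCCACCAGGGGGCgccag
Gm36358 (chr1:65112157-65112256, plus strand): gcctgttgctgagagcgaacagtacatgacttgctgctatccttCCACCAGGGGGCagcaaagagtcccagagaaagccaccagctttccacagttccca
Gm17197 (chr19:56356572-56356671, plus strand): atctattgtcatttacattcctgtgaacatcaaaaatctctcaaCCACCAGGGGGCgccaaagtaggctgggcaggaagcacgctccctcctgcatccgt
Itga8 (chr2:12301967-12302066, minus strand): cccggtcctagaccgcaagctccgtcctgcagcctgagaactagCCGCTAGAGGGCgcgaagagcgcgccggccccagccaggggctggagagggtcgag
Spg20 (chr3:55111968-55112067, plus strand): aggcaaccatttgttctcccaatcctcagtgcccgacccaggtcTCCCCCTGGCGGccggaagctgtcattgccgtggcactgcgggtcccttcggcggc
Mc1r (chr8:123406938-123407037, plus strand): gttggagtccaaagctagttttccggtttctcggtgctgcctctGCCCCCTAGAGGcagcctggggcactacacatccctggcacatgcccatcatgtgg
Rubcnl (chr14:75015917-75016016, plus strand): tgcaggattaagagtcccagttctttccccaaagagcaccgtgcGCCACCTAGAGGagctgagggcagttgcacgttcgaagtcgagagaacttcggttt

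The printed matches lay from 1 to 82 bp from the mean CTCF summit. Nmur1, which encodes a receptor for the peptide neuromedin U, has its match 109 bases before the start and 78 bp from the mean summit. At Nudt17, a gene of the Nudix hydrolase family, the match ends 5 bases before the start and lies 60 bp from the summit. At Itga8, an integrin subunit gene, and Mc1r, the melanocortin receptor gene of pigment cells, the match lay 1 bp from the summit, and at Spg20, which encodes spartin, 4 bp. Over the 5 member windows with the core, the median distance from match to summit was 60 bp, and 5 of 5 were within 100 bp. At cohesin-bound regions the median was 56 bp, with 59 of 75 within 100 bp. The printed examples of the looser form were picked and do not stand for all: over the 16 member windows that hold it the median was 77 bp, with 12 within 100 bp and the farthest, Gm40369, at 232 bp. At cohesin-bound regions the looser form had a median of 80 bp, with 260 of 436 within 100 bp.

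The looser form was present in 16 of the 64 member windows (25%, 16.0 to 36.8%), in 8.54% of windows at cohesin-bound regions and in 5.12% of all windows. With SMC1A in 1 to 3 lists the share was 14.5% (12.3 to 17.1%). A 9-letter form, AGGGGGCGC, gave no such order: 2 of 64 member windows held it (3.13%, 0.861 to 10.7%), beside 2.86% at cohesin-bound regions and 5.45% with SMC1A in 1 to 3 lists. Motifs of general promoter factors, all but that of YY1, had a lower share in member windows than at cohesin-bound regions. For most of them the members' interval or limit holds the cohesin-bound share. CCGGAAG, the ETS family's motif, was in 10.9% of member windows and 23.2% of those at cohesin-bound regions, and GGGGCGGGG, the SP and KLF motif, in 9.38% and 25.1%. ACTACAANT, the ZNF143 motif, and the palindrome CTCGCGAG were in 0 of 64 member windows, which allows a share of up to 4.69%, beside 3.74% and 2.86% at cohesin-bound regions. AAGATGGCG, the YY1 motif, was in 3 of 64 (4.69%, 1.61 to 12.9%) beside 4.23%. GCGCATGCG, the NRF1 motif, and TGACGTCA, the CRE, were in 1 of 64 each (1.56%, 0.276 to 8.33%), beside 4.56% and 4.13%, which that interval holds. Shares over all windows were 9.12% for CCGGAAG, 11.6% for GGGGCGGGG, 1.64% for ACTACAANT and 0.958% for CTCGCGAG, and 1.49%, 1.81% and 1.88% for the YY1, NRF1 and CRE motifs. The median GC content of member windows was 53.3%, close to the 52.7% of all windows and below the 62.0% of windows at cohesin-bound regions. With SMC1A in 1 to 3 lists it was 59.7%. These shares are descriptions with no test. A match is not evidence of binding, and only 64 windows bear on it. These windows are not all separate, since neighbouring genes can share a region. Lacc1 and Ccdc122, for example, hold the same looser match on opposite strands. The intervals treat each window as separate and so are too narrow.

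CTCF peaks at members were weaker than at cohesin-bound regions in each of the 3 lists. CTCF level was not used directly to separate these classes, since both hold a peak of every CTCF list. SMC1A overlap was, however, read over the whole CTCF region, and median width was 604 bp at members and 1197.5 bp at cohesin-bound regions. The contrast in strength and its test are therefore not independent of the rule that chose members. In the authors' fold enrichment, the height of a peak over its local background, the median at members was 6.40 in WT, 8.58 in Satb1 KO replicate 1 and 3.86 in Satb1 KO replicate 2. Cohesin-bound regions had medians of 12.4, 20.4 and 5.17 in the same order. The log2 ratio of the medians, members over cohesin-bound, was -0.95, -1.25 and -0.42, with a mean of -0.87 ± 0.42 (SD, n = 3 lists). All 3 lists had members lower, and the exact two-sided sign-flip permutation test gave p = 0.25, the smallest that 3 lists allow. Fold was not compared between lists, since each list has its own background.

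The order held through the classes between. Median fold in the WT list was 6.54 with SMC1A in 1 list, 7.24 in 2 and 8.09 in 3. In Satb1 KO replicate 1 the same medians were 10.2, 11.9 and 13.4, and in Satb1 KO replicate 2 they were 3.96, 4.20 and 4.21. Members and regions with SMC1A in 1 list had overlapping quartiles in every CTCF list. The pile-up at the summit, solved from the deposited fold and p-value, had a median of 15 reads or fragments at members and 33 at cohesin-bound regions in WT. It was 31 and 83 in Satb1 KO replicate 1, and 21 and 33 in Satb1 KO replicate 2.

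**Figure D1:**
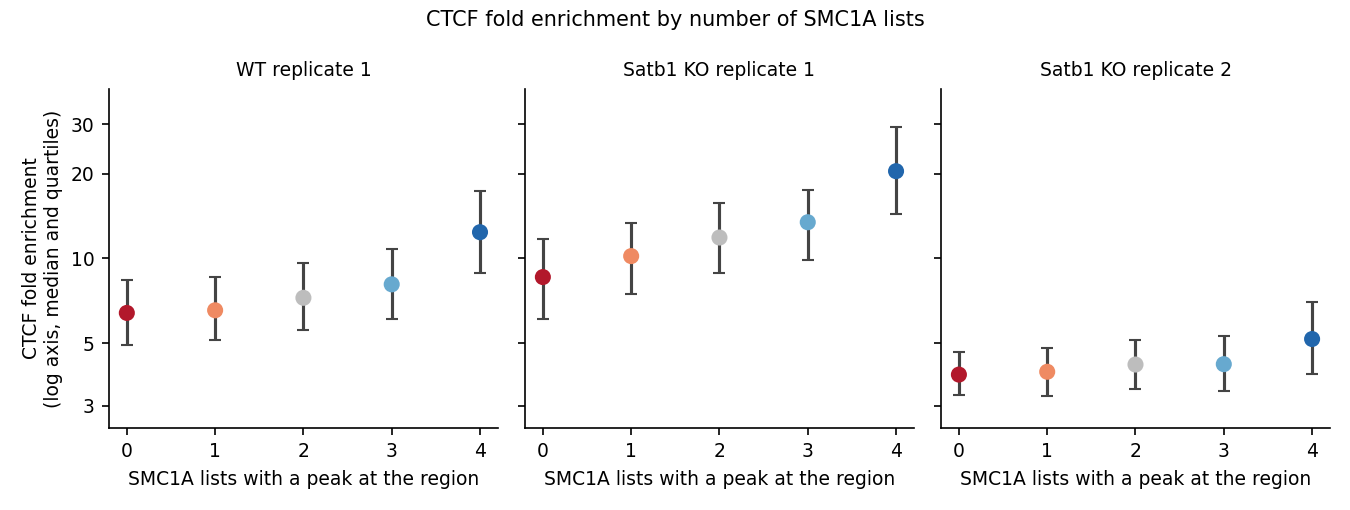
Median CTCF fold enrichment with quartiles (log axis) for regions in all 3 CTCF lists, by the number of SMC1A lists with a peak there, in each CTCF list. Members, at 0, have the lowest median in every panel, 6.40 in WT against 12.4 with all 4 SMC1A lists.

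Few members ranked high. Among the 16902 regions ranked by fold within each list, the median member stood at percentile 21.6 in WT, 15.8 in Satb1 KO replicate 1 and 32.4 in Satb1 KO replicate 2. Members above the median of all regions in every list numbered 49 (2.85%), and 0 of 1720 were above percentile 90 in every list. These counts over every list were not made for other regions. List by list, 13.5% of members in WT, 9.01% in Satb1 KO replicate 1 and 26.0% in Satb1 KO replicate 2 were above the median. Cohesin-bound regions had 69.1%, 69.8% and 61.2%. Above percentile 90 were 1, 0 and 12 members in the same order. The lowest of a member's 3 −log10 q values had a median of 4.37 and ran from 1.32 to 36.4. That lowest value came from Satb1 KO replicate 2 for 1262 members (73.4%).

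Member regions were also narrower. Their median width was 604 bp and that of cohesin-bound regions 1197.5 bp, with 684, 772 and 844 bp for SMC1A in 1, 2 and 3 lists. A wider region has more room to overlap an SMC1A peak, so width is not independent of the rule that chose members. Summits of different lists lay a median of 59 bp apart at members between WT and Satb1 KO replicate 1, and 40 bp at cohesin-bound regions. Both pairs with Satb1 KO replicate 2 were wider apart, at 84.5 and 85 bp for members and 73 and 72 bp for cohesin-bound regions. All 3 summits lay within 100 bp of each other at 38.0% of members and 49.0% of cohesin-bound regions. The classes between had 37.3%, 35.6% and 38.6%, from 1 SMC1A list to 3, so members did not stand apart from them.

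Members were ranked by the lowest of their 3 −log10 q values, and the first 10 are described here. The region at chr11:101910106-101911054 lies 16132 bp from Meox1, a homeobox gene of the somites. Its fold was 11.1 in WT, 9.46 in Satb1 KO replicate 1 and 10.5 in Satb1 KO replicate 2, and the nearest SMC1A peak was 8574 bp away. In rank within each list it stood at percentile 59.2, 19.7 and 96.0, so the lists did not place it alike. At chr8:120595578-120596532, 7003 bp from Gins2, which encodes a subunit of the replicative helicase, the fold was 13.1, 25 and 8.00, at percentiles 70.7, 78.1 and 89.1. The region inside Nkain1 at chr4:130533410-130534592 had folds of 14.8, 21.3 and 10.3, and its nearest SMC1A peak was 128629 bp away. It stood at percentiles 77.7, 70.0 and 95.7, high in every list. A region inside the fucosyltransferase gene Fut10, at chr8:31214696-31215641, had folds of 13.1, 15.5 and 8.80, and one 6116 bp from the lipoxygenase gene Alox12e had 16.3, 18.6 and 7.15.

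Of the other 5 of these 10 members, 3 had local backgrounds from 1.14 to 5.12 reads or fragments. They lay inside Zdhhc14, a palmitoyltransferase gene, inside Nav1, a neuronal gene, and 26844 bp from Hmx1, a homeobox gene. The Hmx1 region, at chr5:35361579-35362259, had folds of 16.4, 23.5 and 7.46 and its nearest SMC1A peak was 195149 bp away. Its mean summit lay 383 bp from the start of 4930478P22Rik, a long noncoding RNA gene. The other 2 stood on a very high background. At chr18:90602197-90602598, 8716 bp from Gm45871, the pile-up was 747, 1406 and 1495 reads or fragments over local backgrounds of 323, 574 and 1035, which gave folds of 2.31, 2.45 and 1.44. Inside Gm32584, at chr5:36630447-36630786, the folds were 4.17, 2.74 and 2.04. Both had high −log10 q values, while their folds ranked under percentile 4 in every list.

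The weakest members show what the lists' own threshold let in. Regions near Tnpo2, Irx5 and Mvd all had a −log10 q of 1.32 in Satb1 KO replicate 2, with a fold of 2.29 there. Nearest to failing the rule were members 45 bp from an SMC1A peak beside Atp5o, 49 bp from one inside Fyb, which encodes an adaptor of T cell receptor signalling, and 50 bp from one near Ets2. Just outside the rule, the region at chr6:30508859-30509301 overlapped an SMC1A peak by 12 bp in 1 list. Others overlapped by 40 bp at chr6:134390230-134390651 and by 48 bp at chr4:59190286-59191302, also in 1 list each. CTCF folds of these 3 ran from 2.61 to 7.03, within the range of members.

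Members were uncommon at gene starts. A start from the RefSeq promoter table lay within 1 kb of the mean summit at 109 of 1678 members, or 6.50% (95% Wilson interval 5.41 to 7.78%), beside 31.2% of all regions in the 3 CTCF lists. Of cohesin-bound regions 43.5% were at a start (42.5 to 44.5%), and the classes between had 12.0%, 14.3% and 21.4%, from 1 SMC1A list to 3. The median distance to a start was 15368.5 bp for members and 3278 bp for cohesin-bound regions. These shares leave out 42 members on chromosome 18, for which no starts were used here. The share at members was 13.1% without the Satb1 KO replicate 2 CTCF list and 14.3% when only SMC1A summits within 200 bp removed a region, with 44.1% and 42.9% of cohesin-bound regions. The intervals cover counting error only, and the classes come from the same lists, so there was no test across samples.

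The gap was also present within bins of CTCF strength that were 20 percentile points wide. Region width was not matched, with medians of 604 bp at members and 1197.5 bp at cohesin-bound regions. What part strength or width plays in the gap was not tested. With regions sorted by their mean fold percentile over the 3 lists, 8.28% of 640 members and 29.9% of 421 cohesin-bound regions below percentile 20 were at a start. From percentile 20 to 40 the shares were 5.48% of 712 and 38.1% of 1610, and from 40 to 60 they were 4.65% of 258 and 41.0% of 2388. From 60 to 80 they were 6.25% of 64 members and 41.9% of 2685. Only 4 members were above percentile 80, too few to compare. Conversely, away from starts the log2 ratio of median fold, members over cohesin-bound, was -0.82 in WT, -1.15 in Satb1 KO replicate 1 and -0.45 in Satb1 KO replicate 2.

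**Figure D2:**
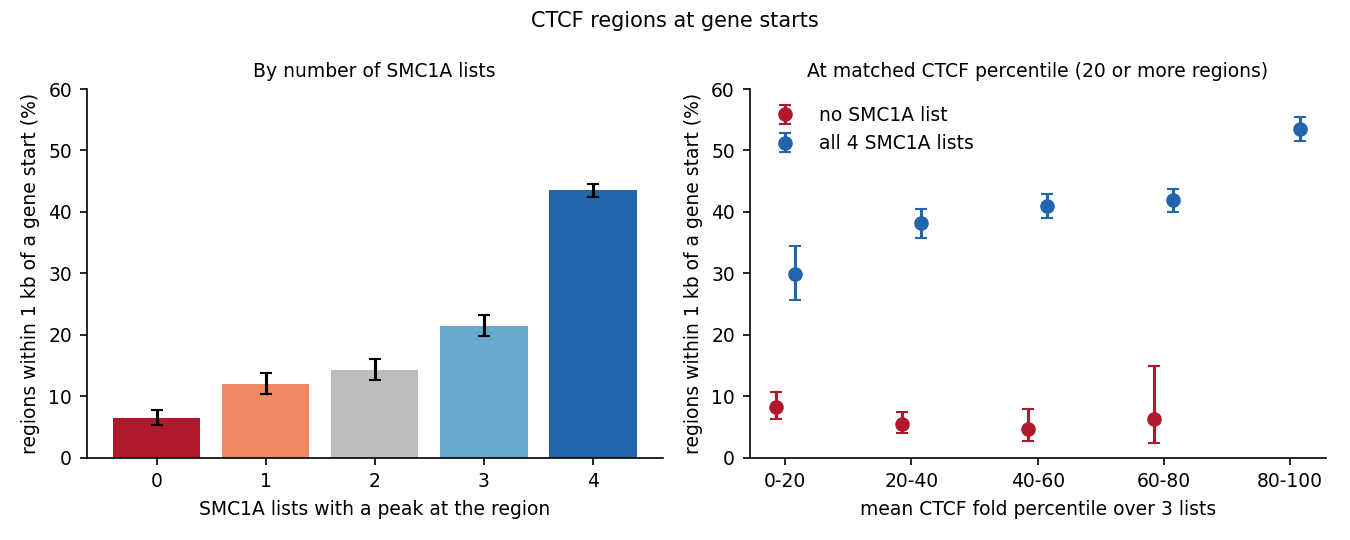
Share of CTCF regions within 1 kb of a RefSeq gene start, with 95% Wilson intervals, by number of SMC1A lists (left) and by bin of mean CTCF fold percentile for members and cohesin-bound regions (right, bins of 20 or more regions). Members stay between 4.65% and 8.28% in every bin drawn, while cohesin-bound regions run from 29.9% to 53.5%.

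Within genes the classes differed less. The mean summit lay inside a protein-coding gene for 921 members (53.5%, 51.2 to 55.9%) and for 47.7% of cohesin-bound regions. The gene table has no exons, so exon and intron are not stated. Members more than 100 kb from any start made up 9.06%, beside 4.99% of cohesin-bound regions. A protein-coding gene could be named within 100 kb for 1640 of 1720 members, and 1429 different genes were named. Gm40363 had 5 members, and Rbfox3, an RNA-binding protein gene of neurons, and Thsd4, a matrix protein gene, had 4 each.

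The 8 members at protein-coding starts with the highest lowest −log10 q were at genes of varied function. Besides Nmur1, with folds of 15.0 in WT, 12.5 in Satb1 KO replicate 1 and 6.51 in Satb1 KO replicate 2, they were at Kcna7, a potassium channel gene, Slco2b1, an organic anion transporter gene, Apol8, Gm572, Palm, Elf5 and Catsperz. Kcna7 had folds of 13.4, 15.9 and 5.20, and its region at chr7:45404833-45405604 lay 805 bp from the start. At Apol8, an apolipoprotein L gene, the summit was 35 bp from the start and the folds were 12.1, 18.2 and 5.83. At Palm, which encodes the membrane protein paralemmin, the summit was 162 bp from the start, with folds of 10.0, 12.6 and 5.27. Elf5, an ETS factor of trophoblast and mammary epithelium, had 9.06, 9.72 and 5.33, and Catsperz, a subunit gene of the sperm calcium channel, 7.32, 8.11 and 4.22. The nearest SMC1A peak lay between 1855 bp (Catsperz) and 50458 bp (Slco2b1) from these 8.

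Most members had no SMC1A peak within 5 kb. A peak of any SMC1A list lay within 5 kb of 562 members (32.7%), and within 500 bp of 112 (6.51%). The median gap to the nearest was 13492.5 bp, and 194 members (11.3%) had none within 100 kb. No reference set was measured beside these shares, so they are not called high or low. By list, 23.4% and 24.4% of members had a peak within 5 kb in WT replicates 1 and 2, and 28.6% and 24.1% in Satb1 KO replicates 1 and 2. Satb1 KO replicate 1, the longest list, was the only one apart from the rest. The KO mean was 2.47 percentage points above the WT mean, and the exact two-sided permutation test gave p = 0.667, where 2 lists against 2 cannot go below 0.33. Labels put equal replicate numbers in the same batch, and within batches the difference was 5.17 points in batch 1 and -0.23 points in batch 2. The difference was not larger than the spread between replicates, and it was -0.60 points when lists were made equally long.

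**Figure D3:**
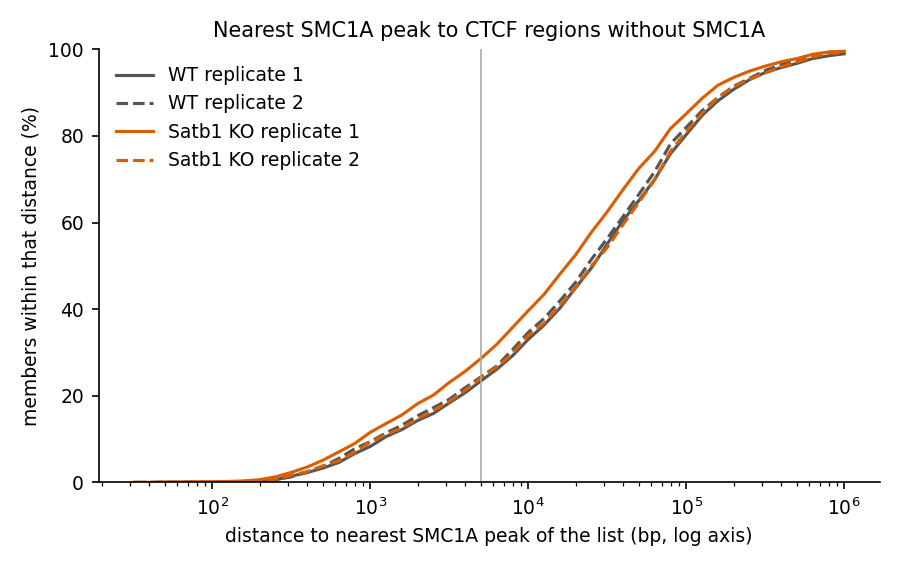
Share of the 1720 members with an SMC1A peak within a given distance (log axis), for each SMC1A list, with a line at 5 kb. Satb1 KO replicate 1 lies above the other 3 lists, with 28.6% of members at 5 kb against 23.4% to 24.4%.

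Members also had CTCF neighbours. The nearest other region of all 3 CTCF lists lay a median of 16931.5 bp away, and 16209 bp for cohesin-bound regions. Members were more often close to another, with 28.0% within 5 kb against 21.9%, and more often isolated, with 15.1% against 8.10% beyond 100 kb.

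A shift in the CTCF ranking between the genotypes was counted within the 16902 regions. A member was counted as higher if its fold percentile rose by 25 or more points over WT in both Satb1 KO lists, and as lower for the reverse. By this rule 33 members were higher (1.92%), where 4.12% of all 16902 regions were. Another 47 were lower (2.73%), where 3.53% of all regions were. Cohesin-bound regions had 3.78% higher and 3.58% lower. These shares depend on the rank in WT, since a region under percentile 25 cannot fall by 25 points and one above 75 cannot rise by as much. Only 752 members (43.7%) had room to fall, and 6.25% of them were lower, beside 4.71% of all regions with room. Room to rise was present at 1680 members, and 1.96% of them were higher, beside 5.50% of all regions with room. With 1 WT list there is no replicate check on these counts, and no order between members and other regions is read from them. At 2 members Satb1 KO replicate 1 was 25 or more points above WT and replicate 2 as far below it, and at 10 members the reverse held. These 2 counts were not made over all regions, so nothing particular to members is read from them.

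Examples are the most shifted members, named after their values were seen. The region inside Mrpl23, a mitochondrial ribosomal protein gene, at chr7:142537428-142538531, had a fold of 3.24 in WT, 18.1 in Satb1 KO replicate 1 and 6.66 in Satb1 KO replicate 2. Its percentile went from 0.831 to 59.8 and 80.6. A region 1280 bp from the zinc finger gene Zbtb39 went from percentile 4.11 to 54.8 and 59.4. In the other direction, the region inside Pom121, a nuclear pore gene, at chr5:135400197-135400676, had folds of 12.9, 4.50 and 2.42 and went from percentile 69.6 to 2.10 and 3.25. The region inside Selenbp1, at chr3:94943710-94944436, went from 77.0 to 18.7 and 26.0. Over all members, the log2 ratio of median fold to cohesin-bound regions was 0.12 higher in the KO lists than in WT, with p = 1 in the exact two-sided permutation test, whose smallest p is 0.33. The KO lists lay on opposite sides of WT, at -1.25 and -0.42 around -0.95, and without replicate 2 the difference was -0.54.

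Members were spread over the genome. Their share of CTCF regions ran from 7.41% on chromosome 16 to 12.9% on chromosome 6. Of the 1863 windows of 1 Mb with a CTCF region in all 3 lists, 928 held a member, and 202 held 3 or more. The fullest windows held 13, 9, 9, 8 and 8 members.

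The fullest window, at 47 to 48 Mb of chromosome 6, had 13 members among 41 regions, beside Cntnap2, a large neuronal gene, and a run of predicted genes such as Gm40363, Gm36327 and Gm40369. It was unlike the others in its background: at 12 of the 13 members the local background was over 10 times the floor of the list in all 3 CTCF lists. In the whole set 20 of 1720 members were in that state, beside 29 of 9838 cohesin-bound regions, so it was rare in both classes but had the larger share among members. The share over all regions was not computed. Folds in the window had medians of 2.65 in WT, 2.48 in Satb1 KO replicate 1 and 1.83 in Satb1 KO replicate 2, and 8 of the 13 were under 3 in every list, where 9 members in all were. What part this background plays in these peaks was not tested.

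The third window, at 53 to 54 Mb of chromosome 14, lies in the T cell receptor alpha and delta locus, which DP thymocytes rearrange to make the alpha chain. Over the span of the locus's 202 V, D, J and C segments in the gene table, chr14:52427967-54224198, 15 of 46 CTCF regions were members (32.6%), where 10.2% of all regions were. Only 4 of the 46 were cohesin-bound (8.70%), where 58.2% of all regions were, and 27 had SMC1A in 1 to 3 lists. This locus was looked at after the windows were seen, and its share is a description. The summit of 14 of the 15 members lay within 1 kb of a segment, as it did for 39 of all 46 regions, and the nearest segment was a V segment for each of the 15.

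Examples lie 101 bp from Trav12n-2, at chr14:53226531-53226929, with folds of 8.47 in WT, 11.5 in Satb1 KO replicate 1 and 3.43 in Satb1 KO replicate 2, and 209 bp from Trav10d, at chr14:52810543-52811013, with 7.13, 17.0 and 4.33. A region 172 bp from Trav10n had the highest fold of the 15 in Satb1 KO replicate 1, at 19.2, with 8.23 in WT and 3.76 in Satb1 KO replicate 2. Over the 15, the median fold was 7.01 in WT, 9.34 in Satb1 KO replicate 1 and 3.97 in Satb1 KO replicate 2, near the medians of all members. Their local background had a median of 2.28 in WT, 4.06 in Satb1 KO replicate 1 and 5.12 in Satb1 KO replicate 2, beside 1.31, 2.35 and 4.10 over all members. The first 2 of these medians lie above the members' upper quartiles of 1.82 and 3.65, and the third below that of 5.85. None of the 9 in the fullest part of the locus was over 10 times the floor, and what part the background plays at this locus was not tested. The V segments of this locus exist in near-identical copies, so which copy a read came from is uncertain.

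Other antigen receptor loci had fewer CTCF regions. The Tcrb locus held 2 members and 8 cohesin-bound regions among 13, and the immunoglobulin heavy chain locus 2 members and 1 cohesin-bound region among 12. The kappa light chain locus had 2 regions, both cohesin-bound, and the Tcrg locus 1, which was in neither class. The remaining windows of the top 5 had median backgrounds from 1.30 to 1.40 in WT, near the 1.31 of all members. At 61 to 62 Mb of chromosome 10, by Col13a1, Npffr1, Pald1 and Pcbd1, 9 of 20 regions were members, with a median fold of 7.91 in WT. At 105 to 106 Mb of chromosome 12, 8 of 18 were, and at 168 to 169 Mb of chromosome 2, by Nfatc2, Kcng1, Ripor3 and Zfp64, 8 of 23.

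**Figure D4:**
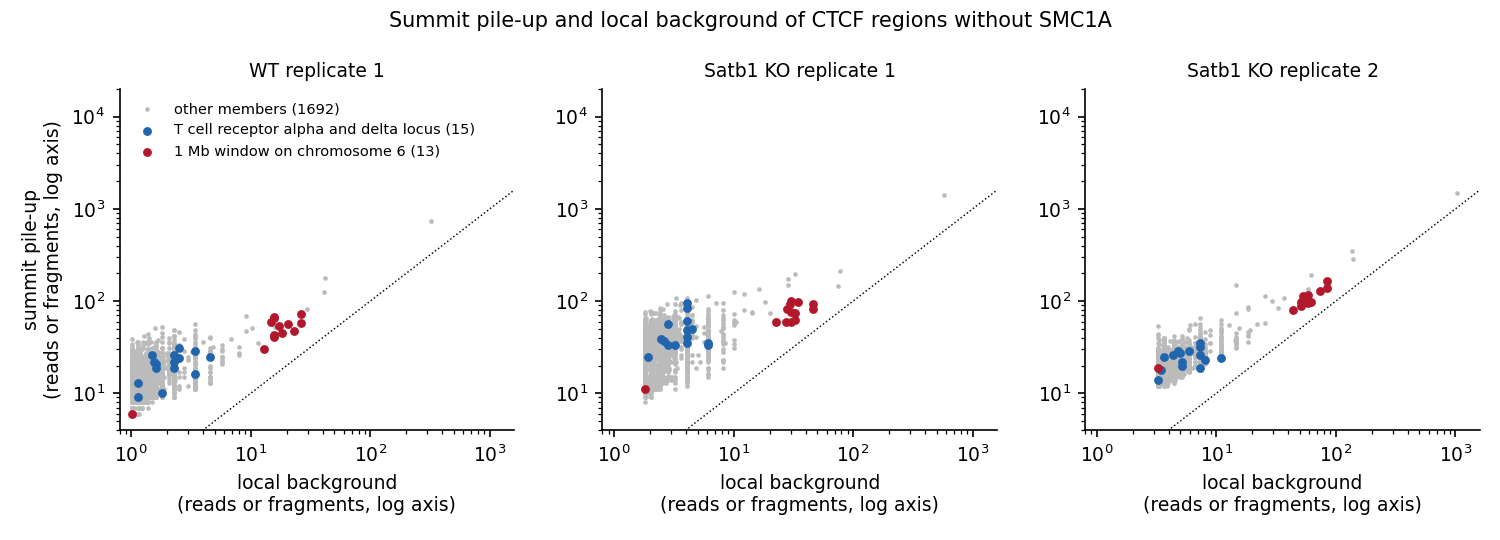
Summit pile-up against local background (both log axes, reads or fragments) for each of the 1720 members in the 3 CTCF lists, with members of the fullest 1 Mb window and of the T cell receptor alpha and delta locus in colour and equality dotted. In each list, 12 of the 13 members of the window on chromosome 6 sit far to the right of most members, and the 15 of the receptor locus lie among them.

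Both lists of T cell factor and signalling genes had few members nearby; neither list holds the V, D and J segments of the receptor loci described above. Within 20 kb of a protein-coding gene, 1412 of 14856 CTCF regions were members, or 9.50%. Within 20 kb of T-lineage transcription factor genes, 1 of 90 regions was a member (1.11%, 0.196 to 6.03%) and 69 were cohesin-bound. Near T cell receptor, coreceptor and signalling genes it was 1 of 69 (1.45%, 0.256 to 7.76%), with 58 cohesin-bound. The single members were 5956 bp from Tcf3, an E protein gene, and inside Lck, the kinase of the T cell coreceptors. The Tcf3 region, at chr10:80403296-80403973, had folds of 6.40 in WT, 7.09 in Satb1 KO replicate 1 and 2.77 in Satb1 KO replicate 2. The Lck region, at chr4:129555324-129555738, had 4.96, 3.77 and 4.41, and an SMC1A peak lay 781 bp away. Near regulatory T cell and effector genes, 1 of 15 regions was a member, 3187 bp from the cytokine genes Il4 and Il13, with folds of 8.09, 8.61 and 2.17.

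Of the housekeeping lists, 3 had shares whose intervals hold the 9.50% of all genes. Members were 8 of 156 regions near ribosomal protein genes (5.13%, 2.62 to 9.79%), 8 of 120 near mitochondrial ribosomal protein genes (6.67%, 3.42 to 12.6%) and 6 of 99 near proteasome genes (6.06%, 2.81 to 12.6%). Near histone genes they were 0 of 47, which allows a share of up to 6.38%. Rpl26, with folds of 10.4, 13.0 and 3.76, and Rpl37a, with 11.7, 13.2 and 4.08, had the strongest members of the first list, at 4207 and 3407 bp from the gene. Mrpl13 and Mrps7 had the strongest of the second, and Psmd4, with 8.19, 13.6 and 5.49, and Psmf1 those of the third.

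Genes of the cohesin and CTCF machinery and of nuclear architecture had 3 members among 65 regions (4.62%). They were 9611 bp from Ncapd3, which encodes a condensin subunit, inside Zfp143, a zinc finger factor gene, and inside Hmgb2, a chromatin protein gene. The Zfp143 region, at chr7:110083637-110084159, had folds of 6.69, 13.0 and 2.89, and the Hmgb2 region, at chr8:57512778-57514187, 4.35, 4.24 and 2.29. Among apoptosis and survival genes 3 of 37 regions were members, 17185 bp from Bad, inside Bcl2l1 and 3529 bp from Casp9. The first is the region named above at the start of Catsperz. Among cell cycle and replication genes 6 of 51 regions were members (11.8%). The strongest of these 6, 13688 bp from the mitotic kinase gene Cdk1, had folds of 8.88, 16.5 and 5.15. The one inside Mcm2, a replicative helicase gene, had 5.18, 7.12 and 4.45.

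Olfactory receptor genes had the highest share of the 20 lists, with 13 members of 62 regions (21.0%, 12.7 to 32.6%) and 27 cohesin-bound. These are clustered receptor genes of the nose. The region 5148 bp from Olfr54 had folds of 13.3 in WT, 15.9 in Satb1 KO replicate 1 and 5.14 in Satb1 KO replicate 2, with 92564 bp to the nearest SMC1A peak. The region by Olfr805, Olfr806 and Olfr807 had 7.01, 11.3 and 3.97. Vomeronasal receptor genes had 1 of 15, near Vmn2r58, Hox genes 1 of 11, near Hoxa13, and clustered protocadherin genes 0 of 6. Genes named Zfp had 32 of 390 (8.21%, 5.87 to 11.4%), led by regions inside Zfp469, with folds of 8.50, 16.7 and 7.98, and Zfp536, with 10.3, 16.7 and 6.23. Imprinted genes had 2 of 28, inside Airn and by Zrsr1 and Commd1. The Zrsr1 region, at chr11:22986949-22988267, had folds of 4.30, 18.2 and 2.41. In rank within each list it stood at percentile 4.90 in WT, 60.3 in Satb1 KO replicate 1 and 2.80 in Satb1 KO replicate 2, so the KO lists did not move together.

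Marker genes of other thymic or blood cells were covered too thinly to compare. Members were 1 of 14 regions near B cell markers, inside Pax5, 2 of 16 near thymic epithelial markers, by Krt8 and Foxn1, 0 of 10 near erythroid and 0 of 6 near myeloid markers. The Pax5 region, at chr4:44564526-44565211, had folds of 11.4, 11.9 and 4.67 and its nearest SMC1A peak was 190863 bp away.

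**Figure D5:**
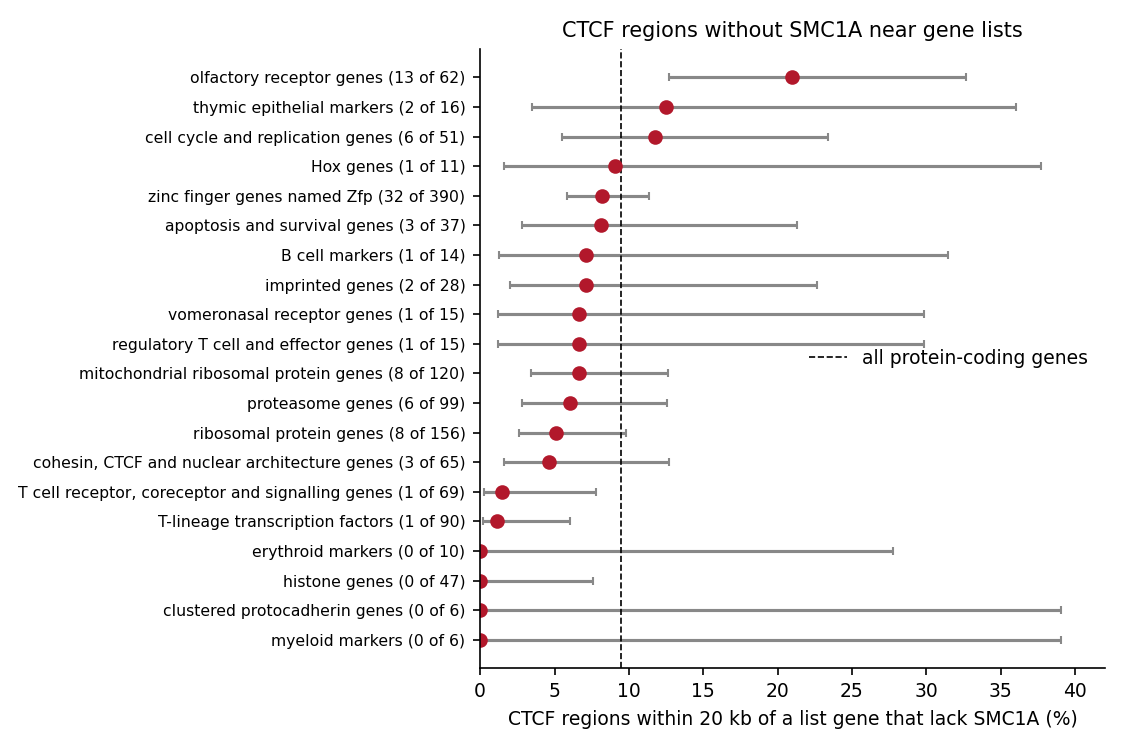
Share of CTCF regions within 20 kb of the genes of each list that had no SMC1A peak, with 95% Wilson intervals and the number of members of regions in brackets; the dashed line is the 9.50% of all protein-coding genes. The intervals of both T cell lists and of histone genes lie below the line, that of olfactory receptor genes lies above it, and the others cross it.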

How the data were processed

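Per the labels' protocols and the submitters' processing notes, CUT&RUN libraries of CTCF and SMC1A were made from sorted thymocytes in 2 batches, and the listed tools are MACS2, Bowtie2, Trimmomatic 1.24, deepTools, SAMtools and R 4.12, with mm10 as build. The labels list IgG and input libraries, which were not analysed here. The tools' settings, and which library if any served as control for the peaks, were not given in the sources used here. Of 18 samples, 7 had a peak list analysed here, 1 per library. The authors deposited a fold enrichment (ratio) per peak, with −log10 p and −log10 q as deposited and the summit's offset in bp; the highest q was 0.0498. These are the authors' own values and were ranked only within a list.

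Regions were merged and classed as described above, each taking the peak with the highest −log10 q per list. A Poisson model of the peak caller gave pile-up and background from each fold and p, and the pile-up came out whole within 0.001 in 99.0% of the peaks of the Satb1 KO replicate 1 CTCF list and 99.8% to 99.9% of those of the others. The steps ran in Python 3.11.15 with pandas 2.3.3, numpy 2.4.6, matplotlib 3.10.9 and scipy 1.17.1, and were tested on simulated data. Starts and promoter sequences came from RefSeq GRCm38.p6 tables, which cover 81.7% of protein-coding genes on chromosomes 1 to 19 other than 18, and gene bodies from a table without strand or exons. No genome sequence was used here.

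Replicate numbers follow the batch in the labels, so they pair samples. Named regions are, by the lowest −log10 q of the 3 CTCF lists, the 10 highest, the 8 highest at protein-coding starts, up to 3 per gene list, the 3 lowest, the 3 nearest to SMC1A on either side of the rule and the 5 fullest windows of 1 Mb. A region takes the gene whose start is within 1 kb, else the gene around it, else the nearest within 100 kb. The members and the 20 gene lists were chosen with earlier results of these data known. Alternatives were stricter peaks, equal lists, other overlaps, distances and motifs, X and Y added, each list left out, and the replicate block. Wilson intervals and limits from a count of 0 (3 counts) cover counting error only.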

Additional observations from a re-analysis of the deposited data

How the results depend on the processing

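The number of members, 1720 of 16902 regions, was 3170 of 16902 with SMC1A peaks of −log10 q 5 or more. It was 744 of 12101 with CTCF peaks of −log10 q 5 or more. With each list left out it ran from 1864 of 16902 to 6490 of 28530, the last without Satb1 KO CTCF replicate 2. The share at a gene start, 6.50%, was 10.0% with the stricter SMC1A peaks, 5.29% when SMC1A within 500 bp also removed a region, and 14.3% when only SMC1A summits within 200 bp did. It was 3.58% within 500 bp of a start, 24.6% within 5 kb and 10.5% within 1 kb of either boundary of a protein-coding gene, an alternative chosen after seeing the data. With each list left out it ran from 6.81% to 13.1%. In 16 of 16 alternatives where both were computed, cohesin-bound regions had the higher share, by 2.19 to 11.2 times. The CTCF ratio of members to cohesin-bound regions stayed negative in 16 of 16 alternatives. It was -1.67 with −log10 q in place of fold, and the alternatives that used fold ran from -1.45 to -0.64. With each list left out the ratio ran from -1.45 to -0.72. Its test cannot pass a threshold with 3 lists. The KO minus WT difference of that ratio turned to -0.54 without Satb1 KO CTCF replicate 2 and ran up to 0.61 with other lists left out; it has no value without the WT CTCF list. The KO minus WT difference in members within 5 kb of SMC1A was -0.60 points with lists of equal length and 0.217 to 5.21 with each list left out. With the replicate block it was 2.47 points (exact sign-flip permutation p = 1, where 2 pairs cannot go below 0.5). Mean summit distance, 76.2 bp, was 92.7 bp with the 200 bp summit rule and 73.0 to 87.0 bp with each list left out. The share of member promoters with the CTCF core was 2.13% with that rule, 4.50% with the stricter SMC1A peaks, 3.13% for the 9-letter form, 25% for the looser form, chosen after seeing the data, and 3.13% to 7.58% with each list left out. The cause of these changes was not tested, except that fewer SMC1A peaks or CTCF lists leave more regions that qualify. Depth is unknown, so weak SMC1A at members was not detectable beyond what the lists call.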
